A study of Rattus norvegicus with 6 samples.

Results

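The small leucine-rich proteoglycans of the corneal stroma were followed here through 10 genes fixed by name, namely Kera, Lum, Dcn, Bgn, Fmod, Ogn, Omd, Prelp, Aspn and Epyc. All 10 were among the 17771 genes of the deposited count table, and 9 passed the filter on low counts and were tested with 14213 genes in all. Epyc was too sparse to be tested. The libraries were made from corneas of Wistar rats that carried a corneal allograft from SD rats. Recipients in 3 libraries had been injected with resveratrol, a plant polyphenol, into the peritoneum every day, and those in the other 3 with saline, up to day 7 after surgery. Every library therefore comes from a grafted cornea, and an ungrafted cornea was not analysed here. The age and sex of the animals are not given in the labels, and neither is whether each library was made from a different rat. The p-values thus speak for the spread among libraries, part or all of which may be technical.

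Small leucine-rich proteoglycans are secreted proteins with a core of leucine-rich repeats that binds collagen fibrils. Many of them carry chains of keratan sulfate or of dermatan and chondroitin sulfate. In the cornea they set the diameter and spacing of the fibrils on which transparency rests, and keratocytes, the resident cells of the stroma, make most of them. The family is divided by sequence into classes. Decorin (Dcn), biglycan (Bgn) and asporin (Aspn) belong to class I. Lumican (Lum), keratocan (Kera), fibromodulin (Fmod), osteomodulin (Omd) and Prelp belong to class II, and osteoglycin (Ogn, also called mimecan) and epiphycan (Epyc) to class III.

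Of the 10 genes, 9 have neighbours in the family. In the RefSeq gene table of the rat assembly GRCr8, Dcn, Lum, Kera and Epyc follow each other with no other protein-coding gene between them, as do Ogn, Omd and Aspn, and Prelp and Fmod. Bgn stands apart from the others on X. The RefSeq table of promoters in the same build held 7 of the 10 members. Upstream sequence is shown for 3 of them: Kera as the corneal member of the family, Aspn as the tested member with the largest difference between the groups, and Omd as its neighbour, which differed less. Kera is taken from chr7:34283850-34284099 on the plus strand and Omd from chr17:15274871-15275120 on the minus strand, 250 bases each up to the start of the gene. For Aspn, 152 bases at chr17:15310568-15310719 on the minus strand are shown, which end at the outer edge of its gene record. Capitals mark matches to short motifs.
Kera: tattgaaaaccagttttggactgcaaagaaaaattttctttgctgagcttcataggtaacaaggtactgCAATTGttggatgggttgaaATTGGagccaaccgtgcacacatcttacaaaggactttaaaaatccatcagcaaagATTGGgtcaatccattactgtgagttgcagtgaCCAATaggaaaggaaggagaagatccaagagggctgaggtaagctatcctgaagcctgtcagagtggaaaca
Aspn: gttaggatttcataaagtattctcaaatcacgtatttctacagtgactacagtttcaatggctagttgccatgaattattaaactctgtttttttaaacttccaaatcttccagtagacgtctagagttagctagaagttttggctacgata
Omd: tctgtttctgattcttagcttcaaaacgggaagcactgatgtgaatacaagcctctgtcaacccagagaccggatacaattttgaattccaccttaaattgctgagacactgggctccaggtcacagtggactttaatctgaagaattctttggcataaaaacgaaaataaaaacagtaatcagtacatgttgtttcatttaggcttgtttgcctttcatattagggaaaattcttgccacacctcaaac
The motifs searched on both strands were the TATA box TATAAA, the CCAAT box CCAAT, the E box CANNTG, the AP-1 site TGANTCA, the GC box GGGCGG and the SMAD palindrome GTCTAGAC. The Kera window held 3 CCAAT boxes, at 161, 105 and 72 bases before the start counted from the first base of each match, and 1 E box. A CCAAT box occurs in 34.0% of the 33469 RefSeq windows of 250 bases, 3 or more in 2.52%, and an E box in 65.5%. In the Aspn and Omd windows 0 matches to the 6 motifs were found. In windows of 152 bases, as used for Aspn, 21.8% of all promoters hold a CCAAT box and 48.7% an E box. A match is a run of letters and was not tested as a binding site.

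Depth was alike in all libraries, with 35068936 to 37460756 counts per library, and the labelled tissue was checked with marker lists. Summed levels of 9 corneal epithelial markers were 74490 to 83824 CPM (counts scaled to the size of the library, with TMM factors) in saline and 73931 to 83879 CPM in resveratrol, with Krt12, the keratin of corneal epithelium, at 31838 to 37566 CPM. The 8 keratocyte markers summed to 12638 to 13702 CPM in saline and 12760 to 17893 CPM in resveratrol, most of which was Aldh3a1, an enzyme that corneal epithelium makes as well, and Ptgds was under 1 CPM in every library. Markers of cartilage and sclera (8 genes, 10.7 to 23.6 CPM in sum), of skeletal muscle (6 genes, 2.48 to 3.03 CPM in saline and 1.71 to 1.83 CPM in resveratrol), of lens and retina (8 genes, 6.42 to 7.43 and 8.08 to 14.2 CPM) and of pigment cells (5 genes, 2.16 to 11 CPM) were low, and Col2a1, Comp, Matn1, Acta1 and Tyr, which define some of these tissues, stayed under 1 CPM. Schwann cell markers (6 genes) summed to 119 to 139 CPM in saline and 94.4 to 101 CPM in resveratrol, and corneal endothelial markers (7 genes) to 1214 to 1424 and 1261 to 1813 CPM. The muscle, lens and retina, and Schwann cell sums did not overlap between the groups. Leukocyte markers had lower means in resveratrol in 12 of 12 genes, at 715 to 1100 CPM in sum against 417 to 443 CPM. Blood vessel markers did so in 8 of 8, at 431 to 663 against 282 to 358 CPM. In whole corneas, fewer cells of a type and less RNA per cell cannot be told apart.

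As transcripts, lumican, decorin and biglycan dominated the family in both groups. Levels of different genes are compared on the authors' FPKM values, which are scaled by gene length. In saline corneas the order of mean FPKM was Lum at 1507 ± 128, Dcn at 952 ± 116, Bgn at 882 ± 213, Kera at 108 ± 30.2, Fmod at 40.3 ± 17.1, Prelp at 37.7 ± 5.90, Ogn at 36.0 ± 10.7, Aspn at 11.9 ± 2.62, Omd at 1.72 ± 0.667 and Epyc at 0.143 ± 0.0617 (SD, n = 3). The ranges of Dcn and Bgn overlapped in saline, and so did those of Fmod, Prelp and Ogn, while all other neighbours in the order were apart. Lum, whose core protein carries keratan sulfate in the cornea, ranked 28 among the 17771 genes by mean FPKM over all libraries, Dcn 47 and Bgn 82. Kera, the keratan sulfate proteoglycan known mainly from the cornea, ranked 620, and its transcript level was well below that of Lum in every library. The ratio of Lum to Kera was 9.69, 19.4 and 15.6 in saline replicates 1, 2 and 3 and 15.1, 10.1 and 17.3 in resveratrol.

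With resveratrol the order was the same at its head and tail, and the ranges of Bgn and Dcn did not overlap. Taken within each library, the ratio of Bgn to Dcn, given below, overlapped between the groups. Mean FPKM was 1272 ± 147 for Lum, 913 ± 229 for Dcn, 584 ± 18.0 for Bgn, 95.1 ± 30.6 for Kera, 35.8 ± 4.96 for Prelp, 32.3 ± 7.65 for Fmod, 31.1 ± 5.07 for Ogn, 6.39 ± 1.1 for Aspn, 1.5 ± 0.308 for Omd and 0.0287 ± 0.0310 for Epyc (SD, n = 3). Prelp, Fmod and Ogn overlapped again. The lowest Dcn library, at 665 FPKM, was above the highest Bgn library, at 602 FPKM.

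The question of the series is how resveratrol changes gene expression in a grafted cornea. All 9 tested members had a lower mean in resveratrol, with a median log2 fold change of -0.23, against -0.0080 over all genes tested, of which 51.2% had a lower mean. The members' median was -0.09 without resveratrol replicate 3 and -0.36 without resveratrol replicate 1, -0.4 without saline replicate 3 and -0.42 in the 4 libraries whose descriptions end in Oct. In edgeR's quasi-likelihood test with Benjamini-Hochberg adjustment over all genes, 0 of the 9 passed an adjusted p of 0.05, as did 0.0% of all genes tested. At an unadjusted p under 0.05, 2 members were lower, Aspn and Bgn, where 11.7% of all genes tested were lower and 19.6% differed in either direction. DESeq2, run as an alternative, called Aspn and Bgn lower too, where it called 4.64% of its genes lower and 6.87% in either direction. In CPM, the groups did not overlap for Aspn and Bgn among the 9, against 14.4% of all genes tested that lay lower without overlap and 26.5% in either direction. Both tools read the same counts.

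**Figure D1:**
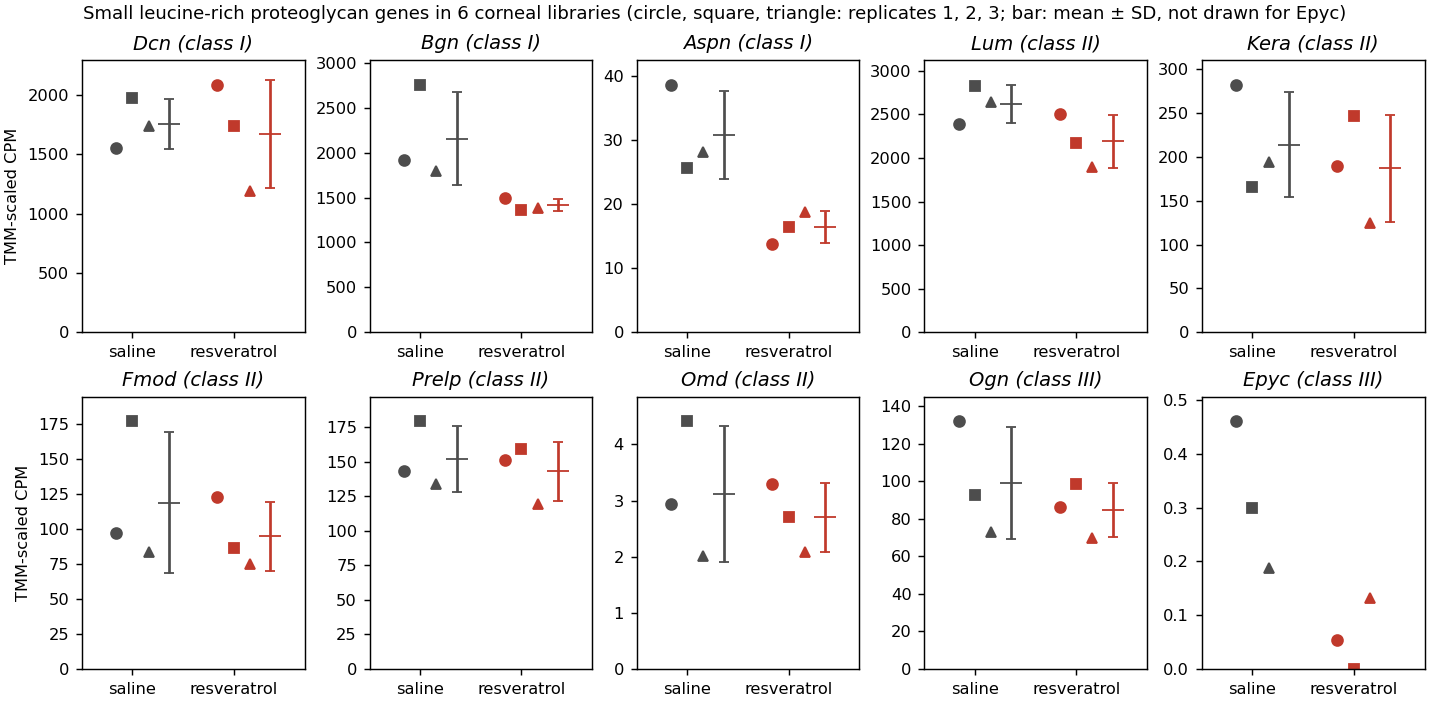
TMM-scaled CPM (vertical axis, from 0) of the 10 members in each of the 6 libraries, in grey for saline and red for resveratrol, with circle, square and triangle for replicates 1, 2 and 3 and bars for mean ± SD except in Epyc. The groups are apart in Aspn, Bgn and Epyc and overlap in the other 7 genes.

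In class I, asporin and biglycan were lower in every resveratrol library than in any saline library, and decorin was not. Aspn, which binds collagen and TGF-beta, was at 38.6, 25.7 and 28.2 CPM in saline replicates 1, 2 and 3 and at 13.8, 16.5 and 18.8 CPM in resveratrol. Its highest resveratrol library thus lay under its lowest saline library, and saline replicate 1 was the highest of all. The mean was 46.9% lower, a log2 fold change of -0.91 ± 0.18 (moderated SE, unadjusted 95% interval -1.33 to -0.49; edgeR adjusted p = 0.106, DESeq2 adjusted p = 0.00085). Over the other fits except those of DESeq2 the adjusted p for Aspn was 0.097 to 0.28. Relative to its mean log2 CPM, Aspn stood at 0.80, 0.21 and 0.34 in saline and -0.68, -0.43 and -0.24 in resveratrol. The median over the leukocyte markers was 0.83, 0.58 and 0.10 and -0.73, -0.48 and -0.18, and that over the vessel markers 0.62, 0.19 and 0.10 and -0.56, -0.24 and -0.16. Within resveratrol, Aspn and both marker lists had the same order of libraries. The median over the fibroblast and myofibroblast markers had that order too, at -0.57, -0.25 and -0.11. In saline this median was 0.27, 0.31 and 0.25, with replicate 2 the highest, unlike Aspn. In saline, replicate 1 was the highest for Aspn and for the leukocyte and vessel lists. Aspn was higher in saline replicate 3 than in replicate 2, and these 2 lists were the reverse. The part of leukocytes and vessels in the level of Aspn was not tested.

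Bgn, a proteoglycan with dermatan or chondroitin sulfate chains that is known to signal through Toll-like receptors when it is released from matrix, was at 1923, 2754 and 1792 CPM in saline and at 1490, 1363 and 1385 CPM in resveratrol. The resveratrol libraries lay close together, and saline replicate 2 was far above the other two of its group. The mean was 34.5% lower (log2 fold change -0.61 ± 0.17, unadjusted 95% interval -1.0 to -0.22; edgeR adjusted p = 0.139, DESeq2 adjusted p = 0.0167). Without saline replicate 2 the difference was -0.39 (edgeR adjusted p = 0.285), and DESeq2, which gave -0.38 there, still called it (adjusted p = 0.0183). Without resveratrol replicate 2 or 3 the DESeq2 adjusted p was 0.0985 or 0.0695, and the call was lost. The Oct libraries are replicates 2 and 3: descriptions of the first replicates carry the ending Sep and all others Oct, with no meaning given. In the 4 Oct libraries alone the difference was -0.72 for Bgn and -0.61 for Aspn, and the Sep pair has 1 library a group and allows no test.

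Dcn, which binds type I collagen and TGF-beta and is close to Bgn in sequence, was at 1552, 1974 and 1737 CPM in saline and at 2084, 1737 and 1189 CPM in resveratrol. Its highest and its lowest library were both resveratrol libraries. The log2 difference was -0.07 ± 0.21 (unadjusted 95% interval -0.56 to 0.42; edgeR adjusted p = 0.871), and its sign turned without saline replicate 2 (0.02) or without resveratrol replicate 3 (0.13).

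Of the class II members, which include the keratan sulfate proteoglycans Lum and Kera, 0 of 5 passed in edgeR or in DESeq2. Lum was at 2390, 2826 and 2643 CPM in saline and at 2499, 2174 and 1897 CPM in resveratrol, so 1 resveratrol library lay within the saline range. The difference of -0.26 ± 0.14 had an unadjusted 95% interval of -0.58 to 0.06 (edgeR adjusted p = 0.311), and its sign was negative in all 24 alternative fits. Its size was -0.16 without resveratrol replicate 3 and -0.42 in the Oct libraries alone. Kera varied more within the groups than between them, at 282, 166 and 194 CPM in saline and at 189, 247 and 125 CPM in resveratrol. Its interval, -0.83 to 0.45, leaves room for a difference of either sign (log2 fold change -0.19 ± 0.27, edgeR adjusted p = 0.726). Its sign turned without saline replicate 1 (0.06) or resveratrol replicate 3 (0.04).

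Fmod, a collagen-binding member close to Lum in sequence, was at 97.1, 177 and 83.7 CPM in saline and at 123, 86.7 and 75.4 CPM in resveratrol. Saline replicate 2 alone lay above every resveratrol library, and without it the difference was 0.07 in place of -0.33 ± 0.29 (edgeR adjusted p = 0.574). Prelp, which anchors basement membrane to connective tissue, was at 143, 179 and 134 CPM in saline and at 151, 159 and 119 CPM in resveratrol. It had the narrowest interval after Lum, -0.43 to 0.25 around -0.09 ± 0.15 (edgeR adjusted p = 0.767). Omd, a member best known from bone, had few counts, with 75 to 162 per library, and was at 2.93, 4.41 and 2.01 CPM in saline and 3.30, 2.71 and 2.08 CPM in resveratrol (-0.21 ± 0.32, edgeR adjusted p = 0.760). The sign of Prelp and of Omd turned without saline replicate 2, to 0.04 and 0.13, and that of Prelp also without resveratrol replicate 3 (0.04).

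In class III, Ogn was at 132, 93.0 and 73.2 CPM in saline and at 86.3, 98.5 and 69.9 CPM in resveratrol. Saline replicate 1 stood above the rest, and without it the difference was 0.04 in place of -0.23 ± 0.22 (edgeR adjusted p = 0.600). Epyc, a member known from cartilage, was at the edge of detection, with 16, 11 and 7 counts in saline and 2, 0 and 5 in resveratrol. The groups did not overlap. Summed per group there were 34 and 7 counts. Divided by the TMM-scaled depth of each group, their ratio was 4.99, with an exact binomial 95% interval of 2.18 to 13.3 that covers counting error only. DESeq2 gave Epyc an adjusted p of 0.208.

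The members did not follow 1 pattern over the libraries. Relative to each gene's mean log2 CPM, the averaged profile of the 9 tested members was 0.21, 0.32 and -0.07 in saline and -0.01, -0.06 and -0.39 in resveratrol. Lum and Prelp lay nearest to it, with root mean square differences of 0.135 and 0.134 on the log2 scale, and Aspn (0.435) and Kera (0.325) farthest. Resveratrol replicate 3 was the lowest library for 6 of the 9 (Kera, Lum, Dcn, Fmod, Ogn and Prelp). Saline replicate 2 was the highest for 5 (Lum, Bgn, Fmod, Omd and Prelp). Aspn had the reverse order within resveratrol, with replicate 1 lowest and replicate 3 highest. Among 9008 other genes with at least 10 CPM, those nearest to the averaged profile were Sox15 (0.0535), Smarca2 (0.0545), Ppox (0.0587), Washc3 (0.0678) and Bckdha (0.0728).

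**Figure D2:**
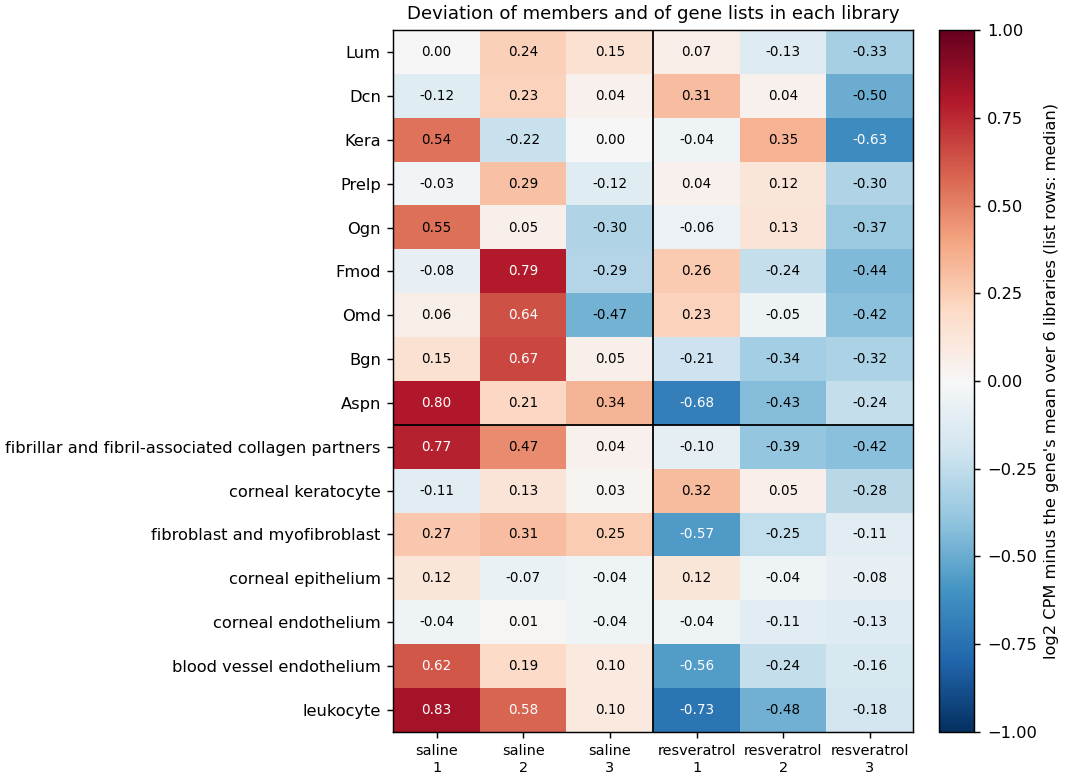
Colour and number give log2 CPM minus the gene's own mean over the 6 libraries (columns, saline left of the line, resveratrol right), for the 9 tested members above the line and, as medians, for gene lists below it. Aspn and Bgn are positive in the 3 saline and negative in the 3 resveratrol libraries, as are the collagen, fibroblast, vessel and leukocyte lists. Dcn, Kera, Prelp, Ogn, Fmod and Omd change sign within both groups.

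Fold changes of chromosomal neighbours are set side by side here. Aspn, at -0.91, stands next to Omd, at -0.21, which stands next to Ogn, at -0.23. Lum, at -0.26, stands between Dcn, at -0.07, and Kera, at -0.19. Prelp, at -0.09, stands next to Fmod, at -0.33. Among family genes outside the members, Ecm2, next in line beyond Aspn, was at -0.77, and Optc, next to Prelp, at -0.57. Both were added after their values were seen. These differences between neighbours were not tested.

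The summed level of the 10 members was 3271, 4058 and 3399 FPKM in saline and 3347, 3032 and 2532 FPKM in resveratrol. The means, 3576 ± 423 and 2970 ± 411 FPKM (SD, n = 3), differed by -606 FPKM with a two-sided exact permutation p of 0.2, where 3 against 3 libraries cannot go below 0.1. The difference was -364 FPKM without saline replicate 2, -387 FPKM without resveratrol replicate 3 and -946 FPKM in the Oct libraries alone. The lowest saline library lay under the highest resveratrol library. Lum, Dcn, Bgn and Kera made up 96.0% to 97.0% of the sum in every library.

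Within this sum, Bgn took 24.0%, 27.8% and 21.6% in saline and 18.0%, 18.7% and 23.1% in resveratrol, and Dcn 25.7%, 26.4% and 27.8% against 33.3%, 31.5% and 26.3%. Resveratrol replicate 3 lay within the saline range for both genes. In the other 2 resveratrol libraries the Bgn share was below and the Dcn share above every saline library. The ratio of Bgn to Dcn was 0.934, 1.05 and 0.778 in saline and 0.539, 0.591 and 0.878 in resveratrol (two-sided exact permutation p = 0.2). Lum held 42.3% ± 2.39 and 42.9% ± 1.37 and Kera 3.09% ± 1.15 and 3.18% ± 0.858 (SD, n = 3), and both shares differed by less than either SD. Prelp held 1.05% ± 0.0617 in saline and 1.21% ± 0.111 in resveratrol. Of the 10 shares, 2 reached the smallest possible exact permutation p of 0.1, Prelp and Epyc, which is 0.5 after Benjamini-Hochberg adjustment over the 10. By class, class I held 51.4% ± 2.61 and 50.5% ± 0.927 and class II 47.6% ± 2.49 and 48.4% ± 0.868 (SD, n = 3).

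**Figure D3:**
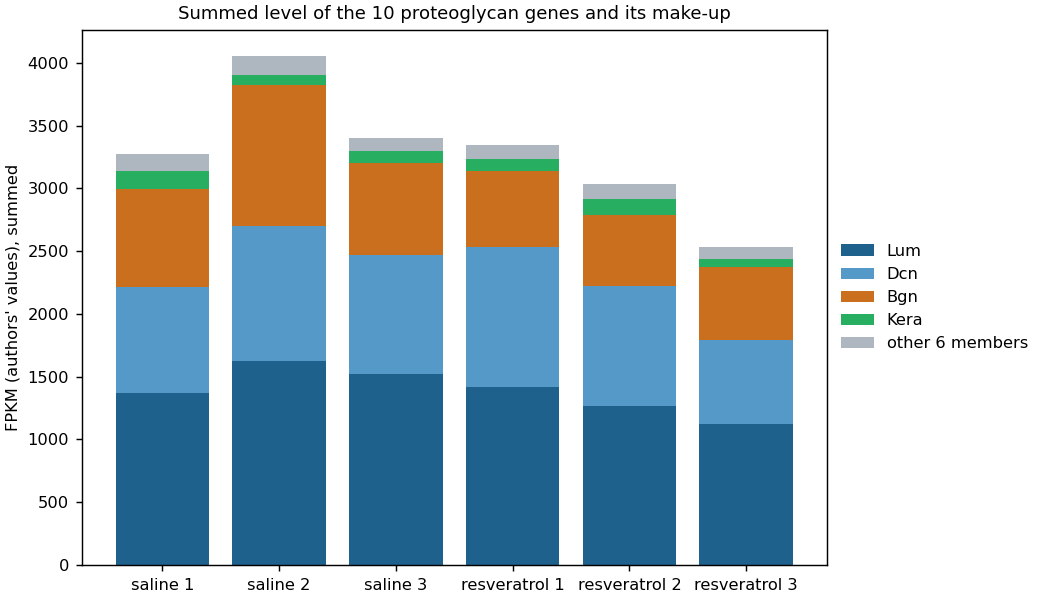
Bars give the summed FPKM (authors' values, axis from 0) of the 10 members in each library, split into Lum, Dcn, Bgn, Kera and the other 6 members. The bars reach 3271 to 4058 FPKM in saline and 2532 to 3347 FPKM in resveratrol, and the Bgn part is smallest in the resveratrol libraries.

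The remaining genes of the family were less abundant. Of 7 listed, 6 were tested, 5 had a lower mean in resveratrol, 0 passed in edgeR and 1 was called by DESeq2, with a median log2 fold change of -0.45. The median was -0.21 without saline replicate 2, -0.79 without saline replicate 3 and -0.16 on log2(FPKM + 1). The gene called was Podnl1, which encodes a podocan-like protein, at 10.9, 6.42 and 3.89 CPM in saline and 1.01, 1.93 and 1.42 CPM in resveratrol (-2.27 ± 0.40; edgeR adjusted p = 0.1, DESeq2 adjusted p = 2.2e-05). The groups did not overlap in Podnl1. Ecm2, next in line to Aspn among the genes of the family on the chromosome, was at 5.98, 4.71 and 4.24 CPM against 3.06, 3.62 and 2.08 CPM and did not overlap either (-0.77 ± 0.25, edgeR adjusted p = 0.182). It is named here after its values were seen. Chad, a leucine-rich protein of cartilage, spread from 8.10 to 52.1 CPM within saline (-0.33 ± 0.60), and Tsku, a secreted inhibitor of several growth factor pathways, had a higher mean in resveratrol (0.25 ± 0.18).

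Collagen genes, whose fibrils the members bind, had lower means in resveratrol with few exceptions. Of 11 collagen partners 10 had a lower mean in resveratrol, 8 were called lower by DESeq2 and 0 passed in edgeR, with a median log2 fold change of -0.73 beside -0.23 for the members, a difference that was not tested. Col3a1, a fibrillar collagen of healing tissue, was at 3939, 2542 and 2095 CPM in saline and 1194, 1115 and 1202 CPM in resveratrol (-1.29 ± 0.22; edgeR adjusted p = 0.1). Col1a1 and Col1a2, the chains of type I collagen, differed by -0.97 ± 0.27 and -0.91 ± 0.23 (edgeR adjusted p = 0.137 and 0.126). Col14a1, a fibril-associated collagen, was the exception, with a higher level in each of the 3 resveratrol libraries than in any saline library (0.44 ± 0.17, edgeR adjusted p = 0.222). The ratio of Col1a1 to Lum, in FPKM, was 1.15, 0.720 and 0.564 in saline and 0.539, 0.367 and 0.555 in resveratrol. This ratio, chosen after the values were seen, did not overlap between the groups, with saline replicate 3 only just above the highest resveratrol library (two-sided exact permutation p = 0.1, the smallest possible). The ratio of Col1a1 to Bgn overlapped, at 2.01, 1.04 and 1.17 against 1.27, 0.825 and 1.07 (two-sided exact permutation p = 0.5). So did the ratios of Col1a1 to Dcn, at 1.87, 1.09 and 0.911 against 0.685, 0.488 and 0.939 (two-sided exact permutation p = 0.2), and to Aspn, with means of 101 and 100 (two-sided exact permutation p = 1.0). Of these 4 ratios, 1 was apart between the groups.

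**Figure D4:**
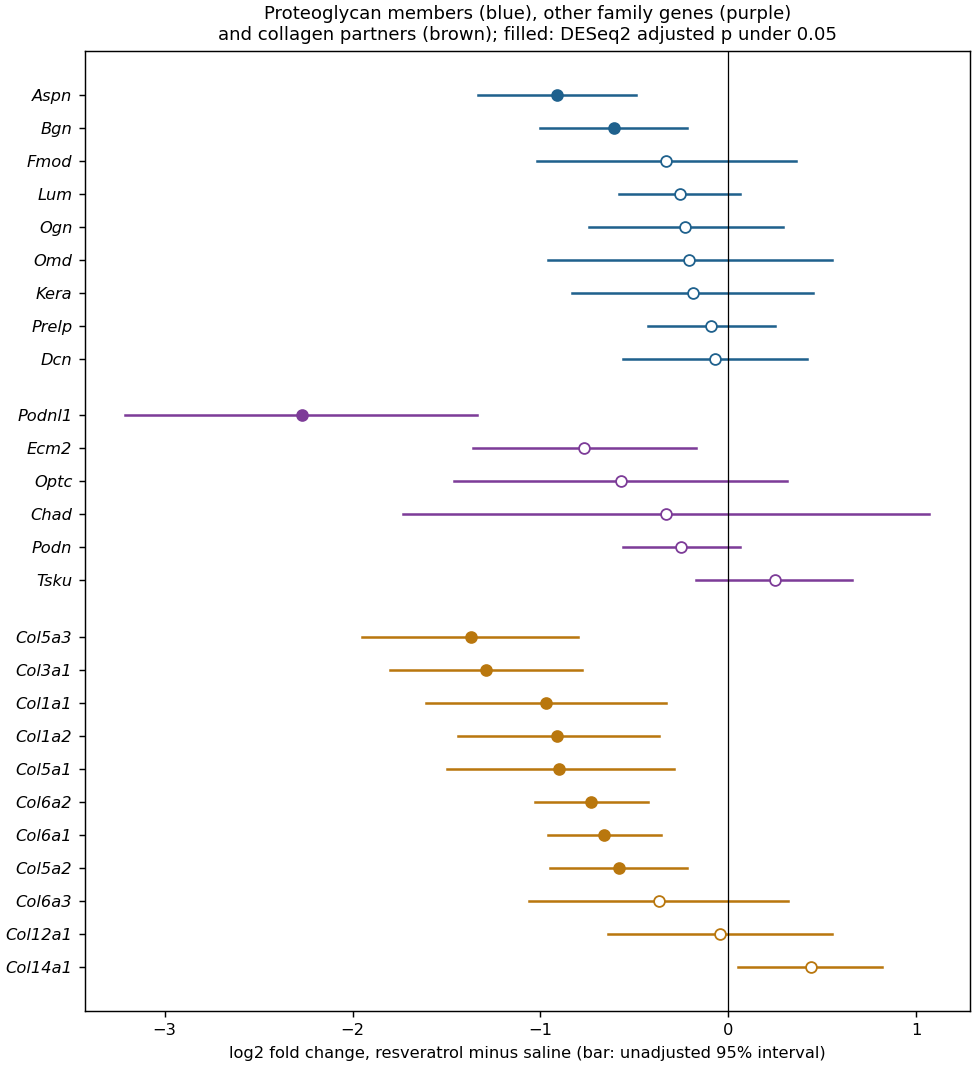
Points give the log2 fold change (resveratrol minus saline, horizontal axis) and lines the unadjusted 95% interval for the 9 tested members (blue), 6 other genes of the family (purple) and 11 collagen partners (brown), with filled points for DESeq2 adjusted p under 0.05. Of the blue points Aspn and Bgn are filled, and of the brown points 8 of 11.

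Fibroblast markers had lower means as well. All 12 markers of fibroblasts and myofibroblasts were lower on average in resveratrol, each reached 1 CPM in some library, and their summed level was 4933 to 7218 CPM in saline and 3322 to 4883 CPM in resveratrol. DESeq2 called 6 of the 12, edgeR 0. Their median log2 fold change was -0.67, and 9 of the 12 lay lower without overlap, against 14.4% of all genes tested. Pdgfra, a receptor that marks stromal fibroblasts and is also among the keratocyte markers, overlapped between the groups (-0.060 ± 0.22). The part of fibroblasts and myofibroblasts in the lower levels of Aspn, Bgn and the collagens was not tested.

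Enzymes that build the sugar chains of the members differed in both directions. The 7 enzymes of the linkage region that joins a chain to the core had 4 lower and 3 higher means, and DESeq2 called 1, Pxylp1, which removes a phosphate from the linkage xylose (-0.33 ± 0.088, edgeR adjusted p = 0.136). Fam20b, the kinase that adds that phosphate, differed by 0.069 ± 0.083. B3gat3 and B3galt6, which add sugars of the linkage, differed by -0.18 ± 0.078 and 0.29 ± 0.12. The median of the 7 was -0.13, and it was -0.04 without saline replicate 1 or in the Oct libraries alone and -0.2 without saline replicate 3.

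Of 11 tested genes for keratan sulfate, 7 had lower and 4 higher means, 0 passed in edgeR and DESeq2 called 1. Their median was -0.16, and -0.06 without saline replicate 1. It turned to 0.02 without saline replicate 2, so its sign rests on that library. The gene called was B4galt4, a galactosyltransferase that extends the chain, at 10.2, 16.0 and 14.6 CPM in saline and 25.7, 20.4 and 26.4 CPM in resveratrol (0.83 ± 0.19; edgeR adjusted p = 0.121, DESeq2 adjusted p = 0.00321). Every resveratrol library was above every saline library for B4galt4. The same held for B4galt1, a broader galactosyltransferase, at 0.21 ± 0.071 (edgeR adjusted p = 0.191). Chst5, a sulfotransferase of keratan sulfate, was at 13.0, 12.3 and 13.2 CPM against 9.01, 11.2 and 8.90 CPM, lower without overlap (-0.41 ± 0.13, edgeR adjusted p = 0.175). St3gal1, a sialyltransferase, differed by 0.016 ± 0.18.

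Of 15 tested genes for chondroitin and dermatan sulfate, the chains of Dcn and Bgn, 11 had a lower mean (median -0.15, and -0.07 without resveratrol replicate 1), and DESeq2 called 1, Chst14, which sulfates dermatan. It was at 13.8, 13.0 and 10.7 CPM in saline and 7.35, 7.95 and 9.79 CPM in resveratrol (-0.58 ± 0.16; edgeR adjusted p = 0.146, DESeq2 adjusted p = 0.0419). Chpf, a chain polymerizing factor, differed by -0.15 ± 0.081 and Chst15 by 0.22 ± 0.11. Among 9 genes for the supply of sulfate and sugar nucleotides (median 0.080, with 0.04 without resveratrol replicate 3 and 0.13 without resveratrol replicate 2), DESeq2 called 2 in opposite directions. Papss2, which makes the sulfate donor, was at 21.9, 25.8 and 19.0 CPM against 14.6, 14.6 and 15.2 CPM (-0.59 ± 0.13, edgeR adjusted p = 0.119), while Slc26a2, a sulfate transporter, was at 26.8, 27.9 and 24.1 CPM against 35.1, 31.4 and 32.2 CPM (0.32 ± 0.095, edgeR adjusted p = 0.156). Papss1, the more abundant isoform, differed by -0.17 ± 0.079, and Bpnt2, a phosphatase of the sulfation pathway, by 0.17 ± 0.079.

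Lysosomal enzymes that degrade glycosaminoglycans had a lower mean in 10 of 11 genes (median -0.12), and DESeq2 called 2 of them. The list takes in enzymes of heparan sulfate, such as Naglu and Sgsh, a chain other than those named above for the members. Naglu was at 33.9, 34.5 and 32.0 CPM in saline and at 24.3, 24.5 and 24.7 CPM in resveratrol (-0.45 ± 0.080, edgeR adjusted p = 0.1). Ids, a sulfatase, differed by -0.042 ± 0.085 and overlapped between the groups.

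A list of proteases that process or cleave members, with Pcolce added, had a lower mean in 10 of 11 genes (median -0.58). DESeq2 called 5 of them lower, and 0 passed in edgeR. That median was -0.33 without saline replicate 1 and -0.34 on log2(FPKM + 1). Pcolce, an enhancer of procollagen C-proteinase and not itself a protease, was at 205, 239 and 188 CPM against 132, 139 and 132 CPM (-0.65 ± 0.097, edgeR adjusted p = 0.1). Mmp14, a membrane-bound metalloproteinase that cleaves several members, was at 653, 685 and 546 CPM against 418, 363 and 418 CPM (-0.65 ± 0.11, edgeR adjusted p = 0.1), and Mmp2 differed by -0.62 ± 0.16. The groups did not overlap in any of these 3. Mmp9, a gelatinase of leukocytes and wound epithelium, was at 129, 140 and 114 CPM against 37.8, 76.0 and 38 CPM and passed in edgeR only without resveratrol replicate 2 (-1.75, adjusted p = 0.0456; -1.33 ± 0.26 and 0.108 with it). It was singled out after its values were seen. Adamts5, an aggrecanase, differed by 0.11 ± 0.33.

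Receptors that bind core proteins of the family had 7 lower and 9 higher means, and DESeq2 called 2 lower and 1 higher. Their median was 0.052, and it turned to -0.02 without saline replicate 1, -0.01 without resveratrol replicate 1 and -0.12 in the Oct libraries alone. Tlr2, a receptor for released biglycan, was at 38.7, 36.0 and 45.5 CPM in saline and at 22.5, 32.7 and 25.7 CPM in resveratrol, without overlap (-0.57 ± 0.15; edgeR adjusted p = 0.139, DESeq2 adjusted p = 0.0349). Met, which binds decorin, was at 77.8, 79.3 and 83.6 CPM against 125, 93.2 and 126 CPM, higher without overlap (0.52 ± 0.12, edgeR adjusted p = 0.125). Itgb1 (0.068 ± 0.090) and Cd44 (0.047 ± 0.11), the most abundant of these genes, overlapped between the groups. The leukocyte markers given above were lower in the same libraries as Tlr2, and their part in its level was not tested.

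**Figure D5:**
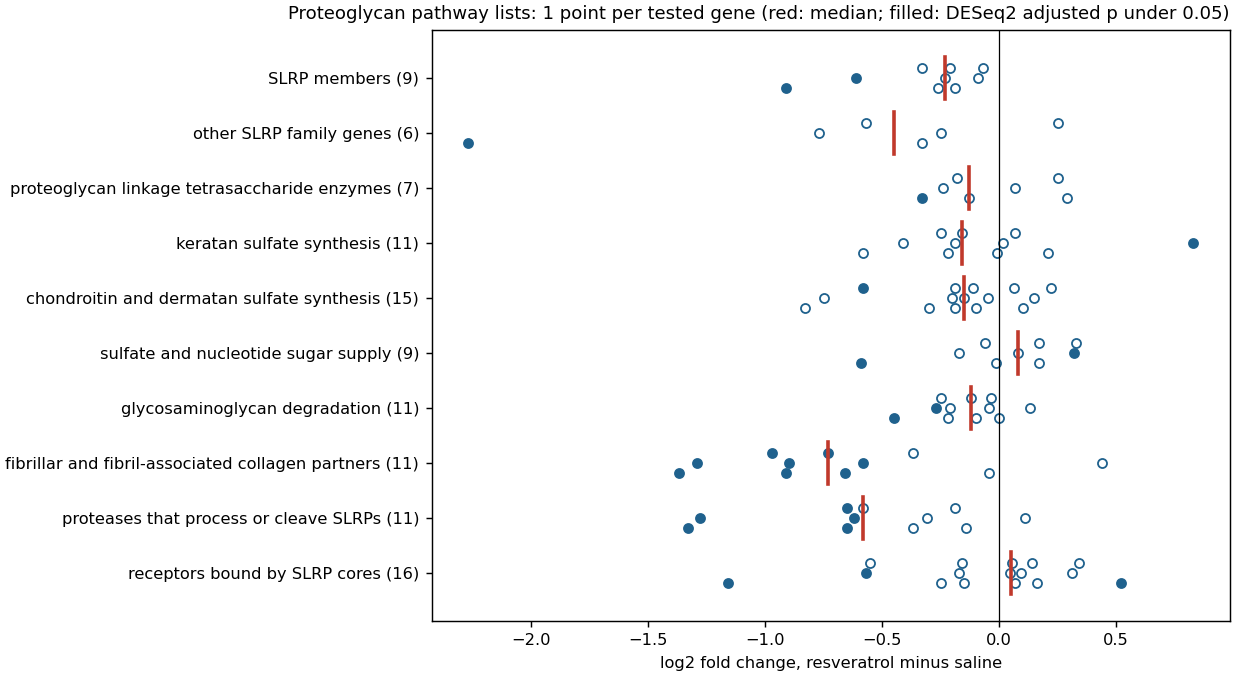
Each point is the log2 fold change (resveratrol minus saline) of a tested gene in the 9 tested members and in 9 lists of related genes, with the number tested in brackets, red bars for medians and filled points for DESeq2 adjusted p under 0.05. The medians run from -0.73 for collagen partners to 0.080 for sulfate and sugar supply, and the members' median is -0.23.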

How the data were processed

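Whole corneas were sequenced as bulk RNA in 3 saline and 3 resveratrol libraries. The authors deposited whole-number read counts per gene, without normalization, together with their own FPKM values (per the file headers). The submitters' processing notes name mRatBN7.2, R 3.2.0 and DESeq2 without a role for each. Aligner, counter, annotation and strand setting: not given in the sources used here. The header of the count table joins 2 names, and columns were matched by name. The FPKM of single-library files equalled the series table in 6 of 6 libraries.

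Counts were filtered with filterByExpr, which left out genes holding 0.0237% of counts, TMM-scaled and tested with edgeR 4.0.16 (glmQLFit, glmQLFTest, no covariate, threshold 0.05 after Benjamini-Hochberg adjustment over all genes) in R 4.3.3. Standard errors and intervals come from limma 3.58.1 on log2 CPM (prior count 2). DESeq2 1.42.0 was an alternative. In simulated counts of 14213 genes for this comparison, edgeR recovered 17.9%, 61.2% and 90.9% of genes changed 1.5-fold, 2-fold and 4-fold with 6 wrong calls of 119, and DESeq2 41.8%, 71.6% and 97.0% with 40 wrong of 180. The simulation drew each gene independently with the spread that edgeR had estimated for it, so spread shared among genes was left out. Its rates may not hold for these libraries. Single values used exact permutation tests. Members, gene lists and the rule for named genes (of each list the 2 most abundant tested genes and the smallest p in each direction, and the 5 genes nearest to the members' averaged profile) were chosen with earlier results of these data known. One gene that the rule names is not reported here. Sequences and gene order come from RefSeq (GRCr8), in which all 10 members matched by symbol.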

Additional observations from a re-analysis of the deposited data

How the results depend on the processing

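In edgeR, 0 members passed under each scaling and filter tried, with the description's ending as a covariate, in the Oct libraries alone and with each library left out. Limma voom, and limma on log2(FPKM + 1) and log2(FPKM + 0.1), were each run once, on all libraries, and passed 0. DESeq2 called 2 members, 24 genes of the related lists and 1007 of all genes, and with each library left out in turn (added after seeing the data) 1 to 2 members and 623, 390 and 1041 genes without saline replicates 1, 2 and 3 and 530, 642 and 826 without resveratrol replicates 1, 2 and 3. In edgeR, all genes called numbered 0 to 21 with a library left out (21 without saline replicate 3, 1 without resveratrol replicate 2), with 1811 to 2675 at an unadjusted p under 0.05, against 2782 with all libraries, and list genes called 0 to 1. The members' median log2 fold change was -0.42 in the Oct libraries and -0.4 to -0.09 with a library left out, the weakest without resveratrol replicate 3. Of 216 member results under alternatives, 20 reversed. In the Oct libraries Kera reached 0.05 and Ogn 0.02. With a library left out, edgeR gave Lum -0.36 to -0.16, Kera -0.44 to 0.06, Ogn -0.4 to 0.04, Dcn -0.25 to 0.13, Fmod -0.55 to 0.07, Omd -0.44 to 0.13 and Prelp -0.17 to 0.04, and DESeq2 Lum -0.34 to -0.16, Kera -0.43 to 0.06, Ogn -0.38 to 0.04, Dcn -0.24 to 0.13, Fmod -0.54 to 0.08, Omd -0.43 to 0.14 and Prelp -0.16 to 0.06. Differences in share with a library left out ran Kera -0.425 to 0.709, Lum -0.46 to 1.91, Fmod -0.159 to 0.163, Ogn -0.0932 to 0.244 and Omd -0.00444 to 0.00919 percentage points, and the Oct libraries gave 0.896 for Kera and 0.308 for Ogn. The cause of these changes was not tested. Low counts limit Epyc and Omd.

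The labels do not say whether replicate numbers pair the samples. Deviations of same-numbered libraries correlated at -0.004, -0.012 and -0.023, and those of differently numbered libraries at -0.006 to 0.017. All lie near 0 and cannot decide whether the libraries are paired. With the replicate number as a block, 0 members and 0 genes were called, with 2731 genes at an unadjusted p under 0.05, Aspn at -0.9 and Bgn at -0.58 (edgeR adjusted p = 0.181 and 0.198), and a pairing by number for the summed level allows no p under 0.25.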
